A study of Danio rerio with 1109 samples.

Results

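The Engrailed transcription factors En1a and En1b mark several trunk cell types of the zebrafish embryo, among them muscle pioneers, part of the dermomyotome and ventral interneurons of the spinal cord. Here, the *en1*-positive cells that carried few transcripts of *itgbl1* and *ndnfl*, genes that mark fibroblasts of the horizontal myoseptum (HM), were described. A cell was a member if it had at least 20 raw counts of *en1a* (ENSDARG00000014321) or *en1b* (ENSDARG00000098730), under 20 of both *itgbl1* and *ndnfl*, and fewer than 3 of the 5 cycling genes *mki67*, *cdk1*, *top2a*, *ccna2* and *aurkb* at 20 counts. This gave 57 cells, 5.14% of all cells in the series. They are called members below. The rule speaks for its own genes only, and the place of these cells in the trunk was not measured.

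Cells came from trunks of 48 hpf embryos and were sequenced one per well with Smart-seq2, which reads full-length cDNA. There was a plate of the *pdgfra:mCit* line and a pair of plates of the *vegfc:Gal4FF;UASGFP; kdrl:mCherry* line (called *vegfc* plates 1 and 2), of similar size. The study sorted cells for mCit from the first line, and for GFP or mCherry, each without the other, from the second. Trunks of each line were pooled and dissociated only in part, which enriched cells near the surface, and no cell is tied to an embryo. The reporters stand for the promoters named, no mutant or treatment entered the groups, and each plate is 1 sample. Cells are not replicates, and no difference was tested. All ratios below are log2 ratios of CPM, gene counts summed over the cells of a group and scaled to the same total, with 5 CPM added, and a share is the percentage of cells with at least 20 counts, with an exact Clopper-Pearson 95% interval that covers counting error only.

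Trunk fibroblasts of the zebrafish derive from the sclerotome and dermomyotome of the somites, make collagen-rich matrix and secrete signals to neighbouring cells. At the HM, lymphatic precursors pause on their way into the trunk. The growth factor Vegfc drives their sprouting, Ccbe1 and the proteases Adamts3 and Adamts14 help to process it, and the chemokine Cxcl12a guides them.

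Members were found mostly on the *pdgfra* plate, with 42 cells (11.5% of that plate), against 5 (1.36%) on *vegfc* plate 1 and 10 (2.65%) on *vegfc* plate 2. *en1*-positive cells of any kind made up 33.4%, 17.2% and 17.8% of these plates. Of them, 56, 54 and 50 reached the *itgbl1* or *ndnfl* limit without cycling and are called HM-gene cells. Another 10, 0 and 1 were cycling without these genes. The main comparison was with the 53.2% of *pdgfra* plate cells that had *pdgfra* or *lum* at 20 counts and neither *en1* gene (*en1*-negative fibroblasts). Depth per member lay between 54544 and 665505 gene counts. On the *pdgfra* plate the median was 244277 counts in members, 297092 in *en1*-negative fibroblasts and 239324 in HM-gene cells.

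On the *pdgfra* plate, 94 cells had at least 100 counts of *en1b*, 1 cell lay from 20 to 29 and 37 lay from 10 to 19. For *en1a*, 67 cells had at least 100 counts, none lay from 20 to 29 and 33 lay from 10 to 19. Among cells within the other limits, the highest engrailed counts under the limit were 18, 18 and 19, and the lowest at or over it were 23, 32 and 45. For *itgbl1* and *ndnfl*, the highest values among members of this plate were 11, 14 and 17, and the lowest values outside the limit were 21, 27 and 29. Low counts were present almost everywhere. Cells of the *pdgfra* plate under 20 counts of *en1b* had a median of 5 counts and held 3.57% of all *en1b* counts of the plate. Their low counts rose with the *en1b* counts of the other wells in the same plate row (Spearman's rho 0.30) and column (rho 0.53, a description over these cells), and the part of such wells in other shares was not tested.

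**Figure D1:**
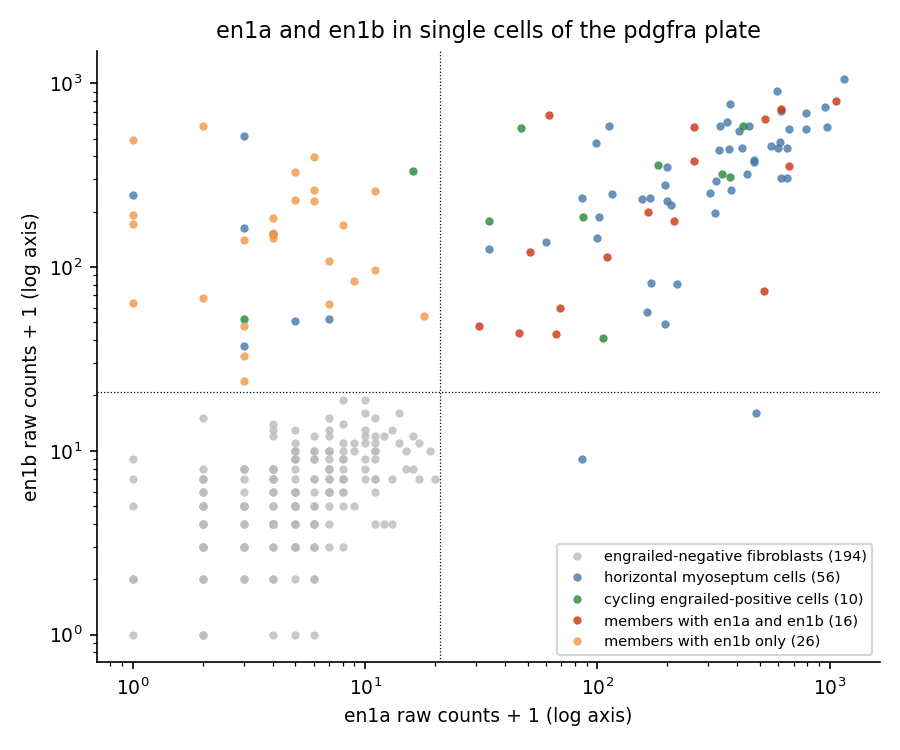
Raw counts of *en1a* and *en1b* plus 1, both on log axes, in single cells of the *pdgfra* plate, coloured by group, with dotted lines at 20 counts. The 16 members with both genes and the 26 with *en1b* only lie above the line for *en1b*, and the *en1*-negative fibroblasts lie under both by construction.

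The members were not of one cell type. By markers, 45 of 57 had *pdgfra* or *lum*, which encode a growth factor receptor and a matrix proteoglycan of fibroblasts, a share of 78.9% (66.1 to 88.6). The rule used neither gene, but most members came from the line sorted on its *pdgfra* reporter, so this share is not independent of the sort. Another 8 cells had at least 3 neural markers and neither fibroblast gene, 1 had 17 muscle genes, and 3 had 10 or 11 of the 18 fibroblast genes without reaching 20 counts of *pdgfra* or *lum*. The plates differed in this make-up. On the *pdgfra* plate 39 of 42 had *pdgfra* or *lum* (92.9%, 80.5 to 98.5), 1 was neural and the median member had 13 of the fibroblast genes, against 11 in *en1*-negative fibroblasts. On the *vegfc* plates 6 of 15 had *pdgfra* or *lum*. The lines were sorted on different reporters, so the line and the sort cannot be told apart.

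The neural members carried genes of inhibitory spinal interneurons. All 7 on the *vegfc* plates had *en1b* between 1104 and 4166 CPM, and none had *en1a* at 20 counts (0 of 7, with an exact interval up to 41%). All 7 had SLC6A5, a glycine transporter, between 544 and 4305 CPM, and *lhx1a* and *lhx5*, LIM homeodomain factors. PAX2 was at 20 counts in 6 of 7, *foxd3* in 5 of 7, and SLC32A1, the vesicular transporter of inhibitory transmitters, in 5 of 7. Among the 74 other neural marker cells of these plates, which all lacked *en1*, SLC6A5 was at 20 counts in 7 (9.46%, 3.89 to 18.5) and *foxd3* in none (an upper bound of 4.86%). The glial gene *gfap* was at 20 counts in none of the 7 and in 42 of the 74. These genes were chosen after their values were seen. The single muscle member had 47 counts of *en1a*, 0 of *en1b*, 1467 of *smyhc1*, a slow muscle myosin, and 88 counts of PROX1, a factor of slow muscle.

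**Figure D2:**
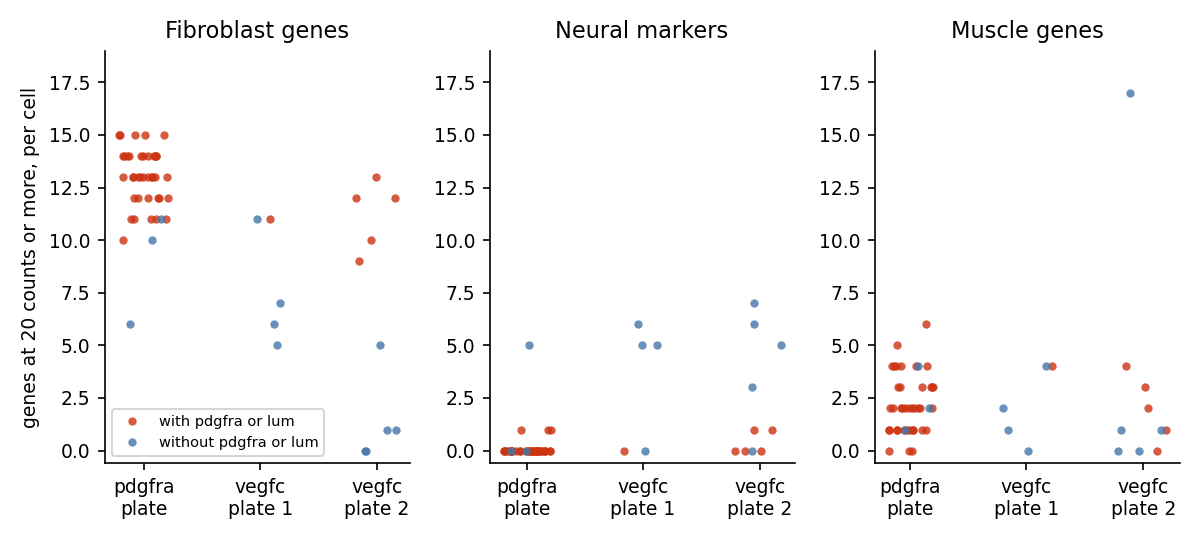
Number of the fibroblast, neural and muscle genes at 20 counts or more (y axis) in each member, by plate, in red where the cell had *pdgfra* or *lum* and in blue where it did not. Cells with at least 3 neural markers number 1 on the *pdgfra* plate and 7 on the *vegfc* plates, and 1 cell of *vegfc* plate 2 has 17 muscle genes.

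As candidate markers of these cells, *klf2a*, a shear-responsive transcription factor gene, and *csf1b*, a ligand of the macrophage and pigment cell receptor Csf1r, were looked at. Neither marked most members. On the *pdgfra* plate *klf2a* was at 20 counts in 7 of 42 members (16.7%, 6.97 to 31.4), from 34 to 520 counts, and no other member exceeded 10. Its share was 6.19% (3.24 to 10.6) in *en1*-negative fibroblasts and 23.2% (13 to 36.4) in HM-gene cells. The interval of members overlaps both of these, which do not overlap each other. *csf1b* was at 20 counts in 9 of 42 members (21.4%, 10.3 to 36.8), each with at least 84 counts, against 24.7% (18.8 to 31.4) in *en1*-negative fibroblasts. Both genes were found together in 4 members. On the *vegfc* plates *csf1b* reached 20 counts in 0 of 15 members and 0 of 250 *en1*-negative fibroblasts, with an exact interval up to 1.46% in the latter. The line and the plate cannot be told apart there. The other ligand gene, *csf1a*, was at 20 counts in 20 of 42 members of the *pdgfra* plate and had a log2 ratio of 1.55 over *en1*-negative fibroblasts, and was at 20 counts in 30 of 56 HM-gene cells (53.6%).

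The comparison with *en1*-negative fibroblasts of the *pdgfra* plate covered 6285 genes that reached 20 counts in at least 10% of the cells of either group. Of these, 418 (6.65%) were higher in members by a log2 ratio of at least 1 and 916 (14.6%) lower, and the median ratio was -0.10. Genes higher or lower here may be so in other *en1*-positive cells too. A matrix gene and a signalling gene were among those found in most members. *fbln7*, encoding a matrix glycoprotein, was at 20 counts in 36 of 42 members (85.7%, 71.5 to 94.6) and 20.6% (15.2 to 27) of *en1*-negative fibroblasts, with a log2 ratio of 2.73. LRIG1, encoding a membrane inhibitor of growth factor receptors, was at 20 counts in 83.3% of members and 28.9% of comparison cells, with a log2 ratio of 2.40.

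The genes of the rule are left out of these counts. Of the others that reached 20 counts in at least 25% of members, the highest ratio belonged to *apcdd1l*, related to a Wnt inhibitor gene and one of the study's HM genes. Members ranged from 0 to 1249 CPM with a median of 32 CPM, the comparison cells had a summed level of 21.7 CPM (20.5 to 22.9, Poisson interval), and the log2 ratio was 3.33. It was at 20 counts in 45.2% of members and in 48.2% of HM-gene cells. The serotonin receptor gene HTR2B followed at 3.05, with 26.2% of members and 1.55% of comparison cells at 20 counts. *cxcl12a* ranged from 0 to 4474 CPM over members and was at 20 counts in 21 of 42 (50%, 34.2 to 65.8), against 8.25% (4.79 to 13), with a log2 ratio of 2.89. It was at 20 counts in 45 of 56 HM-gene cells (80.4%, 67.6 to 89.8), so it is not particular to members. In every gene of this paragraph single members and comparison cells overlapped.

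The other genes among the 15 with the highest ratios had log2 ratios between 2.25 and 2.66. They were *efna2a*, an ephrin of cell guidance, *thbs4a*, a thrombospondin of tendon matrix, *mov10b.1*, SCARA3, *twist2*, *fgl1b*, the gene ENSDARG00000112674, *col11a1a*, a fibrillar collagen, *ndp*, the ligand Norrin, and NOG, a BMP antagonist. NOG was at 20 counts in 25 of 42 members (59.5%, 43.3 to 74.4) and 20.6% of *en1*-negative fibroblasts. *fgl1b* was at 20 counts in 69% of members and 17.5% of comparison cells.

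Among the 10 genes with the lowest ratios, 6 were at 20 counts in no member, with an exact interval up to 8.41%. MATN4, a matrilin of the extracellular matrix, stood lowest at 88.9 CPM (83.4 to 94.6) against 2191 CPM (2180 to 2203), and no member exceeded 493 CPM while the median comparison cell had 1560 CPM. CDH11, a cadherin of mesenchyme, was at 20 counts in 0 of 42 members and 32.5% of comparison cells. *pax9*, a sclerotome factor, had a log2 ratio of -4.10, *zic4* of -4.00 and ZIC2 of -3.84, the last 2 being factors of dorsal somite and neural tissue. CHSY1, *mab21l2*, *sh3kbp1* and *fgfrl1b* had ratios between -4.13 and -3.78. With the *vegfc* plates in place of the *pdgfra* plate, where 7 of 15 members carried neural markers, *apcdd1l*, HTR2B, *mov10b.1*, *twist2*, ENSDARG00000112674, *col11a1a*, NOG, *mab21l2*, *klf2a* and *svep1* had the opposite sign.

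**Figure D3:**
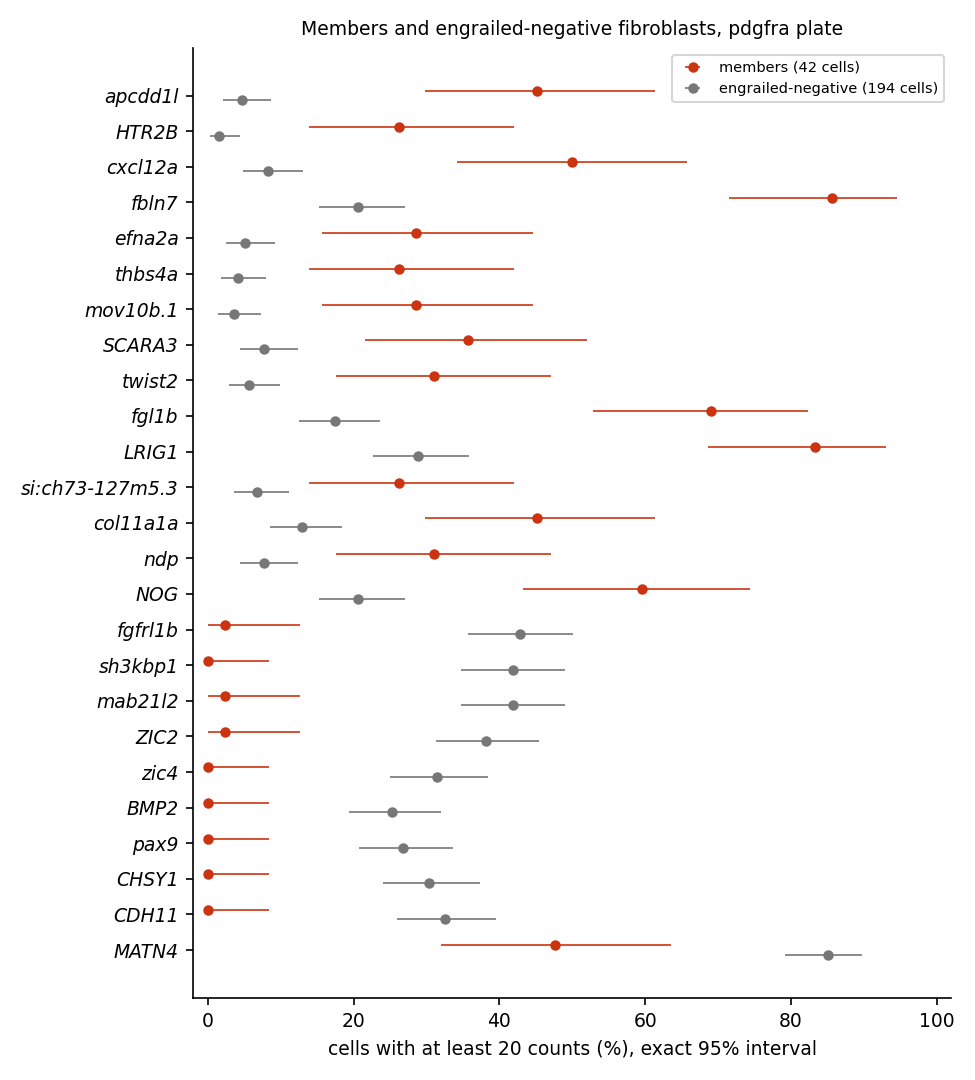
Percentage of cells with at least 20 counts (x axis) for the 15 genes with the highest and the 10 with the lowest log2 ratio of members over *en1*-negative fibroblasts on the *pdgfra* plate, with exact 95% intervals. *fbln7* is at 85.7% in members and 20.6% in the comparison cells, while MATN4 is at 47.6% and 85.1%.

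Regulators of the dermomyotome and sclerotome differed in both directions. Of 23 measured genes of this list, 7 were higher and 9 lower, with a median of 0.03, where 6.65% and 14.6% of all genes were. *pax7a* and *pax7b*, paired-box genes of dermomyotome and muscle progenitors, were at 20 counts in 22 and 21 of 42 members and in 21.1% and 16.5% of *en1*-negative fibroblasts, with log2 ratios of 1.76 and 1.63. *pax3a* had a ratio of 1.53 and *meox1*, a somite homeobox gene, of 1.03, the latter in 38 of 42 members. *foxc1a*, *foxc1b* and *tbx15* were at 20 counts in no member and had ratios of -4.05, -3.42 and -3.64. The gene *aldh1a2*, encoding a retinoic acid synthesis enzyme, had a ratio of 1.76. Of the 11 measured muscle genes 3 were higher, *pax7a* and *pax7b* among them with *cdh15*, and 2 were lower. Against HM-gene cells, 3 of 17 regulators were higher and 2 lower, with a median of 0.06. Of 8 muscle genes, 1 was higher and 1 lower there, with a median of -0.14. Of all genes compared with HM-gene cells, 15% were higher and 10.7% lower.

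Of 25 measured genes of the BMP and TGF-beta list, 14 were lower and 2 higher, with a median of -1.38, where 14.6% of all genes compared were lower and 6.65% higher. Both genes listed as BMP2 were at 20 counts in no member and in 26.3% and 25.3% of *en1*-negative fibroblasts. *bmp4* and *bmp7b*, BMP ligand genes, had ratios of -1.48 and -3.36. The 2 genes listed as BAMBI, a BMP pseudoreceptor, had ratios of -2.58 and -2.87. The higher genes of the list were *fstl1a* and *grem2b*, an antagonist of BMP ligands, with ratios of 1.1 and 1.03. The BMP antagonist gene NOG, at a higher ratio of 2.25, is not among the 25, since its name was not matched to the list. Against HM-gene cells of this plate, 1 of 14 measured genes of the list was lower and 2 were higher, with a median of -0.20. Of all genes compared there, 10.7% were lower and 15% higher. Low levels of this list were therefore not particular to members.

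In the tendon and myoseptum list 7 of 15 genes were lower and 1, *thbs4a*, was higher, with a median of -0.88. *tnmd*, a tendon membrane protein, was at 20 counts in 1 of 42 members and 19.6% of comparison cells. Of 8 fin fold genes 6 were lower, among them *and1* and *and2*, proteins of the fin fibrils, although both were at 20 counts in 39 of 42 members. *hmcn2* had a ratio of -2.87. Of 29 Hox genes 6 were lower, *hoxa13b* at -1.67, and 1 was higher, near the 14.6% and 6.65% of all genes.

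In the fibroblast list 4 of 16 genes were higher, *col6a2*, *col6a3* and *col6a1* at ratios of 1.72, 1.66 and 1.38 and *lum*, which chose the comparison cells, and *fbln1* was lower at -2.68. Of 20 collagen genes 4 were higher, the same *col6* genes among them, and 1, a gene listed as COL12A1, was lower. Of 14 matrix protease genes 4 were higher and 1 lower, where 6.65% and 14.6% of all genes were. Against HM-gene cells, 0 of 15 fibroblast genes were higher and 0 lower, with a median of -0.33. Of 21 collagen genes, 0 were higher and 4 lower there, with a median of -0.38. Of all genes compared with HM-gene cells, 15% were higher and 10.7% lower. The higher *col6* levels were therefore not particular to members.

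Guidance genes differed in both directions, with 7 of 25 higher and 7 lower. The netrin gene *ntn1a* was at 20 counts in 28 of 42 members and 23.2% of comparison cells, and *sema3ab* in 25 of 42 and 18.6%. *sema3e* and *robo3* were lower at -2.58 and -2.65. In the hedgehog list 2 of 11 genes were higher, *gas1b* and *hhip*, and 4 lower, *gas1a* at -2.74 and *cdon*, coreceptors of the ligand, among them. In the Wnt list 3 of 18 were higher and 5 lower, with *wnt2bb* at 2.78 and *sfrp2* and *sfrp5*, secreted Wnt inhibitors, at -3.44 and -3.62. In the FGF, retinoic acid and Notch list 3 of 21 were higher and 2 lower. Of all genes compared, 6.65% were higher and 14.6% lower, and the lists of this paragraph are small.

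Cell cycle genes could differ through the rule, which removed cycling members but not cycling comparison cells. Of 26 genes, 14 were lower, *plk1* at -3.46, and 4 higher, among them the replication genes *mcm3*, MCM6 and *mcm5*. Of 32 immediate early and dissociation genes 3 were higher, *socs3a* at 2589 against 1099 CPM, and 1 was lower, with a median of 0.37. In the Klf list 1 of 10, *klf2a* at 2.18, was higher and 4 were lower. Of all genes compared, 6.65% were higher and 14.6% lower. Markers of other cell types were looked at too. The summed level of the 10 epithelial markers had a median of 2572 CPM per member (98.7 to 4661) and 1131 CPM per comparison cell (37.1 to 6495). That of the 9 immune markers matched to a gene had medians of 22.8 and 17.3 CPM. The endothelial receptor gene *kdrl* was at 20 counts in 8 of 42 members and 6.19% of comparison cells, no member of this plate had 3 endothelial, immune, epithelial, pigment or notochord markers, and 1 had at least 3 neural markers. The part of these in the ratios was not tested.

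Transcripts of the Vegfc pathway were found in a minority of members. *vegfc* was at 20 counts in 4 of 42 (9.52%, 2.66 to 22.6), from 72 to 230 counts, against 0.515% of *en1*-negative fibroblasts (1 cell) and 17 of 56 HM-gene cells (30.4%, 18.8 to 44.1). The order was the other way on the *vegfc* plates, with 1 of 15 members (6.67%, 0.169 to 31.9) and 30 of 250 *en1*-negative fibroblasts (12%, 8.24 to 16.7), and the intervals overlap. Those plates were sorted on the *vegfc* and *kdrl* reporters, so *vegfc* shares there depend on the sort. Of the 15 members, 7 carried neural markers, unlike the fibroblasts beside them. *ccbe1* was at 20 counts in 7 of 42 members (16.7%, 6.97 to 31.4), each with at least 65 counts, against 7.22% (4.0 to 11.8) of *en1*-negative fibroblasts and 53.6% (39.7 to 67) of HM-gene cells. All 4 members with *vegfc* also had *ccbe1*. *adamts3* was at 20 counts in 2 of 42 members, *adamts14* and *cxcl12b* in 1 each, and *svep1*, a matrix protein of lymphatic development, in 5. In *en1*-negative fibroblasts and HM-gene cells of the *pdgfra* plate, *adamts3* was at 20 counts in 9.79% and 5.36% and *svep1* in 5.67% and 8.93%. There, *adamts14* was in 2.06% and none, and *cxcl12b* in 2.06% and 7.14%. *vegfd*, a related ligand, was at 20 counts in 1 member, 16% of *en1*-negative fibroblasts and 7.14% of HM-gene cells. In 90 cells with at least 5 immune markers and without *pdgfra* or *lum*, whose median depth was 372526 counts, *vegfc* and *ccbe1* were each at 20 counts in 2.22% and *cxcl12a* in 3.33%, *en1a* and *en1b* in none. Only 8 of these cells were on the *pdgfra* plate, with 52 on *vegfc* plate 1 and 30 on *vegfc* plate 2, so they are no background of the same plate.

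Against the 56 HM-gene cells of the same plate, 5408 genes were compared, of which 813 (15%) were higher and 580 (10.7%) lower in members, with a median of 0.09. *itgbl1* and *ndnfl*, which set the groups apart, are left out. The 10 genes with the lowest ratios stood between -4.50 and -2.72. *hhip*, a hedgehog-binding protein and target, was at 20 counts in 6 of 42 members (14.3%, 5.43 to 28.5) and 35 of 56 HM-gene cells (62.5%, 48.5 to 75.1), with summed levels of 81.9 and 876 CPM. *si:dkey-250i3.4* reached 20 counts in no member and in 32 of 56 HM-gene cells. *foxc1a* was also absent from members at this threshold and present in 18 of 56. *itga5*, an integrin of fibronectin binding, had a ratio of -3.13. *pcolcea*, *ip6k2a*, EPHB3, *cyp1c2*, SIRT2 and *foxd2* had ratios between -3.04 and -2.72. With a limit of 10 counts in the rule, *pcolcea* was at 0.03.

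The genes described here from those with the highest ratios stood between 2.37 and 3.57. SUGT1 was at 20 counts in 13 of 42 members and 1 of 56 HM-gene cells. DKC1, of ribosomal RNA modification, and PRMT1, an arginine methyltransferase, had ratios of 2.40 and 2.39. *ptp4a3b*, *nap1l4a*, SRRT and *dlc*, a Notch ligand, stood between 2.37 and 2.68. *sema3aa*, a repulsive guidance ligand, was at 20 counts in 12 of 42 members and 3 of 56 HM-gene cells, and *grem2b* had a ratio of 2.38. Of 11 measured cell cycle genes, 11 were higher in members, where 15% of all genes were. Their median was 1.61, with *pcna*, the replication clamp, at 1.89. Another 22 genes of this list did not pass the filter, which a gene can pass through the group where it is higher. Both groups were held to the same limit on cycling genes. Of the 42 members, 9 had 1 such gene at 20 counts and 1 had 2, which was not counted in HM-gene cells. The part of such cells in these ratios was not tested.

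In the study's list of HM genes, which was chosen on these cells and is not independent evidence, 20 of 39 genes were lower and 1 higher, with a median of -1.14. Of all genes compared with HM-gene cells, 10.7% were lower and 15% higher. Both genes listed as TNC, a matrix protein of tendon and myoseptum, had a ratio of -2.14. Of 14 tendon genes 7 were lower, with *tgfbi* at 721 against 2325 CPM, and none was higher. Of 17 dermomyotome and sclerotome regulators 3 were higher and 2 lower, near the shares of all genes. The somite factors *uncx4.1* and *twist2*, at 2.13 and 1.84, were among the higher. In the hedgehog list 1 of 10 genes, *cdon* at 1.47, was higher and 2 were lower. Of the 8 measured genes of the Vegfc list 3 were lower, *ccbe1* at -2.50, *vegfc* at -1.35 and *cxcl12a* at -1.12, and none was higher.

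**Figure D4:**
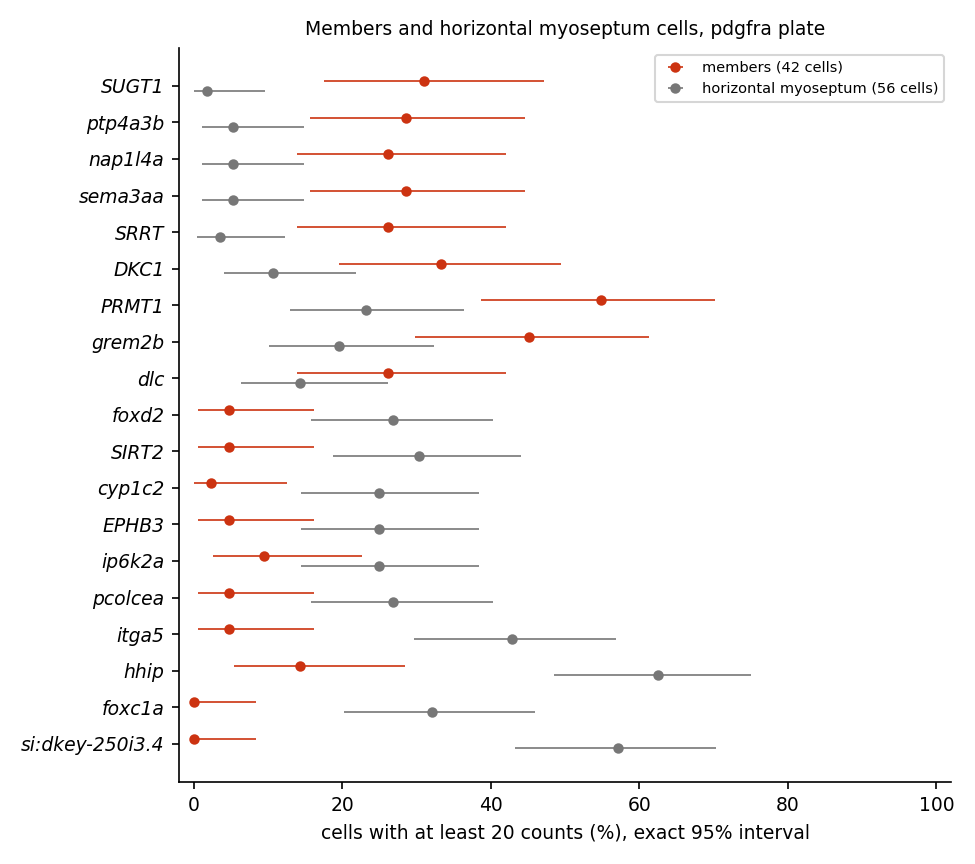
Percentage of cells with at least 20 counts (x axis) for genes with the highest and the lowest log2 ratios of members over HM-gene cells on the *pdgfra* plate, with exact 95% intervals. *hhip* is at 14.3% in members and 62.5% in HM-gene cells, while PRMT1 is at 54.8% and 23.2%.

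Only 10 cells entered the comparison with cycling *en1*-positive cells, which were chosen by mitotic genes, so those are no finding. Of 8567 genes, 1044 (12.2%) were higher and 2210 (25.8%) lower in members, with a median of -0.24. With a median-of-ratios scaling these counts were 1433 and 1855. The filter of 10% of cells can be met here by a single cycling cell. Without the highest cell of each gene the order was the other way, with 28.5% higher and 13% lower. With no filter it was also the other way, with 17.5% and 11.8%. The other settings tried kept more genes lower than higher. The excess of lower genes therefore depends on the processing, and no direction is drawn from it. *dlgap5*, *cdca8*, *nusap1*, *cdca3* and *tacc3*, genes of the mitotic spindle and chromosomes, were at 20 counts in no member and in 6 to 8 of the 10 cycling cells. ADGRV1, *thbs4a*, COPZ2, SCARA3 and GAS6, a ligand of receptor tyrosine kinases, were the highest in members, with ratios between 3.88 and 4.11. With a limit of 10 counts in the rule, *thbs4a* was at -0.07. *en1a*, *en1b*, *pdgfra*, *lum* and *cxcl12a* had ratios of summed levels between -0.11 and 0.07. By cell, *en1a* was at 20 counts in 16 of 42 members and 8 of 10 cycling cells, and *cxcl12a* in 21 and 8.

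Members of the *pdgfra* plate differed among themselves in *en1a*. All 42 had *en1b*, from 23 to 801 counts, with a median of 674 CPM, and 16 also had *en1a* (38.1%, 23.6 to 54.4), against 47 of 56 HM-gene cells with both (83.9%, 71.7 to 92.4). The 26 members with *en1b* only had up to 17 counts of *en1a*. Of 6369 genes compared, 1230 (19.3%) were higher and 1335 (21%) lower in the 16 cells, with a median of 0.00. The small number of cells makes single ratios loose, and the genes of the next sentences were chosen after their values were seen.

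All 7 members with *ccbe1* and all 4 with *vegfc* were among the 16 cells with both *en1* genes, and none was among the 26 others. NUAK1, a kinase gene, was at 20 counts in 7 of 16 and 0 of 26, and *anos1b*, of neuronal and vessel matrix, in 8 and 2. *cxcl12a* was at 20 counts in 12 of 16 and 9 of 26. In the study's list of HM genes 27 of 37 were higher in the 16 cells and none lower, with a median of 1.70. The study chose this list on these cells, and *en1a*, which made the split, ranked among the same genes. This count is therefore not independent evidence. Of all genes compared between these cells, 19.3% were higher and 21% lower. Per cell, 14 of the 42 genes of this list were at 20 counts in the median cell with both *en1* genes, 6 with *en1b* only, 17 in HM-gene cells and 8 in *en1*-negative fibroblasts. Depth was 274012 and 226504 counts in the median cell with both and with *en1b* only. In the other direction, *sema3aa* was at 20 counts in 12 of 26 members with *en1b* only and 0 of 16 with both, and GRB10, an adaptor of growth factor receptors, in 11 and 0. *klf2a* was at 20 counts in 3 of 16 and 4 of 26, *csf1b* in 3 and 6.

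**Figure D5:**
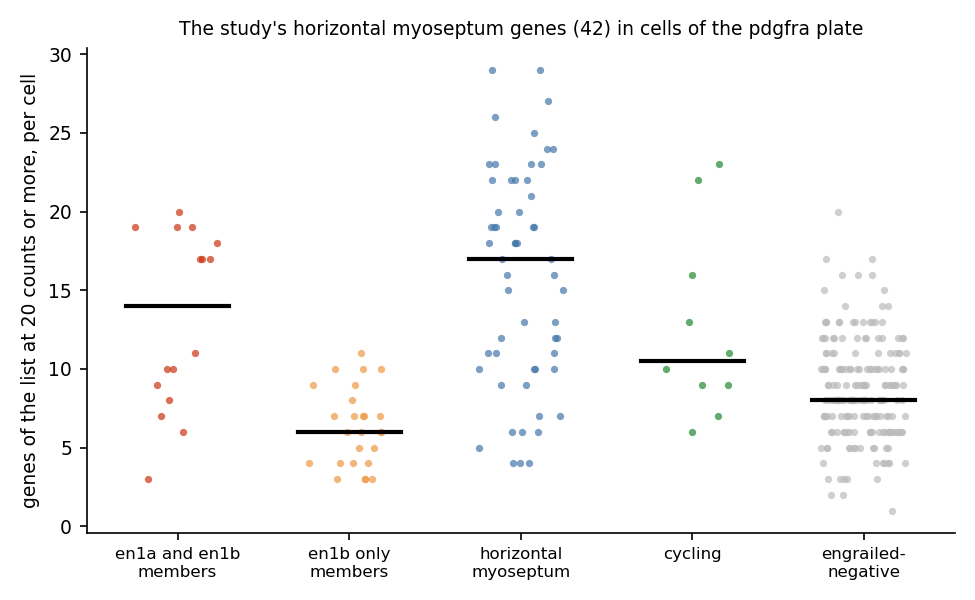
Number of the study's 42 HM genes at 20 counts or more (y axis) in each cell of the *pdgfra* plate, by group, with the median as a black bar. The medians are 14 in members with *en1a* and *en1b*, 6 in members with *en1b* only, 17 in HM-gene cells, 10.5 in cycling cells and 8 in *en1*-negative fibroblasts. The study chose the list on these cells.

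Over the 42 members, Spearman's rho between CPM values was 0.59 for *en1a* and *ccbe1*, 0.37 for *en1a* and *cxcl12a*, 0.26 for *en1a* and *en1b*, and -0.37 for *klf2a* and *pax7a*. These values describe cells of 1 plate that share its depth and low counts, and the other pairs computed lay between -0.25 and 0.34. *pax7a* and *cxcl12a* were found together in 12 members, and 31 had either.

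On the *vegfc* plates ratios would mix neural and fibroblast members, so only counts of cells are given for the 6 members with *pdgfra* or *lum*. Of these, 4 had *en1a* with *en1b* and 2 had *en1b* only, 5 had *cxcl12a*, 3 had *ccbe1* and none had *vegfc* at 20 counts. A further cell without *pdgfra* or *lum* at 20 counts, on *vegfc* plate 1, had 451 counts of *en1a*, 702 of *en1b* and 11 of the fibroblast genes. The 6 cells are too few to tell these shares from those of the *pdgfra* plate.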

How the data were processed

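The authors deposited raw read counts per gene for 1109 cells. They aligned reads to GRCz11, with Bowtie2 and featureCounts named in the notes, and removed cells outside their bounds on depth, genes and spike-ins. Of 32151 rows, 32057 were genes, 92 spike-ins and 2 reporters, and the last 2 kinds stayed out of totals. Names were found for 28991 genes, some in capitals. Cells were grouped by plate from their titles and by counts of the genes of the rule. Counts were summed over cells and scaled to CPM, with python 3.11.15, pandas 2.3.3 and scipy 1.17.1. Intervals of shares cover counting error only. Those of CPM are Poisson intervals of amplified reads without molecular identifiers, and cover neither the counting of molecules nor the spread between cells. The fold of a small group is set by few cells. The script was tested on simulated data. Doublets were not called here, and the authors had removed cells with unusually many expressed genes as potential doublets. Named genes were those with the highest and lowest ratios among genes at 20 counts in at least 25% of cells, 15 and 10, 10 and 10, and 5 and 5 for the 3 comparisons, and genes of 25 lists. The members, lists and rule were chosen with earlier results of these data known. Alternatives were other thresholds, scalings, pseudocounts and filters. Sequences were not used here, and some genes that met the rule are not reported here.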

Additional observations from a re-analysis of the deposited data

Results flagged for a closer look

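Reporter transcripts lay outside the comparisons of the report. In members with *pdgfra* or *lum* on the *vegfc* plates the highest value was 1074 eGFP counts, above the 397 counts that no member of the *pdgfra* plate exceeded. The *pdgfra* line carries mCit under another promoter and without Gal4, so these levels are not like for like. Of these 6 cells 4 had at least 986 eGFP counts, and the median HM-gene cell of the *vegfc* plates had 921.5 counts. The 7 members with neural markers had 14 to 82 counts. The median *en1*-negative fibroblast of the *vegfc* plates had 39 counts. mCherry did not exceed 1 count in any member.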

How the results depend on the processing

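The rule gave 9.65% of all cells with a limit of 10 counts in place of 5.14%, 16.7% after thinning to 50000 counts with a limit of 2, and 2.02% (15 cells) without the *pdgfra* plate. Against *en1*-negative fibroblasts, the higher and lower genes were 2.77% and 5.21% of those compared with a limit of 10, 3.69% and 8.67% with 20 CPM added, 5.46% and 10.2% with no filter (1223 and 2293 genes), and 25.8% and 23.9% on the *vegfc* plates (2170 and 2010 genes). There, *apcdd1l* was at -1.95, HTR2B at -1.04, *mov10b.1* at -1.92, *twist2* at -2.84, ENSDARG00000112674 at -3.97, *col11a1a* at -1.30, NOG at -0.48, *mab21l2* at 2.84, *klf2a* at -0.27 and *svep1* at -0.72. Without the highest cell of each gene, 22.8% were lower (1432 genes). Against HM-gene cells, 6.24% were lower with a limit of 10, 8.97% higher and 6.38% lower with 20 CPM, and 11.6% and 9.61% with no filter (2350 and 1954 genes), and *pcolcea* was at 0.03 with a limit of 10. Against cycling cells, 18% and 20.5% were lower with limits of 10 and 50 (1246 and 1308 genes), 8.07% higher and 13.8% lower with 20 CPM (691 and 1178), 17.5% and 11.8% with no filter (3344 and 2260), and 28.5% and 13% without the highest cell of each gene (2442 and 1112). There, *thbs4a* was at -0.07 with a limit of 10 and *adamts14* at 0.10 with 50. With at least 1 count, the shares were 69% for *klf2a*, 88.1% for *csf1b*, 35.7% for *vegfc*, 66.7% for *ccbe1*, 97.6% for *cxcl12a* and *pdgfra*, 100% for *lum* and 90.5% for both *en1* genes. With a limit of 10 in the rule, they were 32.4% for *cxcl12a* and 17.6% for both *en1* genes. *pdgfra* was at 33.3% with at least 50 counts, and after thinning *pdgfra* was at 88.1%, *lum* at 95.2% and both *en1* genes at 54.8%. The cause of these shifts was not tested. Of 1004 values of single genes under the alternatives, 796 stayed within 1.5 times of the reported ratio and 13 reported ratios past the limit changed sign. A comparison with cells at 0 counts of both *en1* genes was not run. No paired analysis was possible because each plate is 1 sample and no result comes from a test.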
